A study of Mus musculus with 8 samples.

Results

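The actin assembly and cytoskeleton genes are a list of 47 mouse genes for actin itself, for proteins that bind, nucleate, cap, cut and bundle it, and for the GTPases that direct it. A member was taken as measured where the platform annotation of the array names its symbol, including probe sets that name several genes, and each gene was read from its brightest probe set, by the mean of the 8 arrays. This found 45 of the 47, among 21335 genes named on the array. Arpc3 and Actr2, both of the Arp2/3 complex, were not analysed here. Actb and Actg1 fell on a probe set that names both, so the 45 genes are 44 distinct probe sets among 20220. The list was not drawn from measured values by any threshold, but it was chosen with earlier results of these data known. Shares of members beside those of all genes are therefore description only.

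Hemophagocytes are phagocytes with other blood cells inside them. They were taken from spleens of mice that had received 37.5 ug of the oligonucleotide CpG1826, a Toll-like receptor 9 agonist, with 200 ug of antibody clone 1B1.3A, which blocks the IL-10 receptor. Resting macrophages came from spleens of mice that had received 200 uL of PBS. Both groups were male wild type mice of strain C57Bl/6j, aged 8 weeks, and both had 4 intraperitoneal doses on alternate days. Each group has 4 arrays, numbered 2, 3, 5 and 6 for hemophagocytes and 3, 4, 5 and 6 for resting macrophages. The material was 20 cells per mouse, cut out by laser from spleen imprints and pooled, and its RNA was amplified before labelling. The labels do not tie arrays to mice, so the p-values reflect how far these samples scatter, and that scatter may be technical. Treated mice gave no array of macrophages without engulfed cells, so engulfment and the treatment cannot be told apart.

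Actin exists as free monomers and as filaments, and cells shift it between these states to change shape. Thymosins and profilin hold or deliver monomers, the Arp2/3 complex starts branches when WASP family proteins activate it, and capping and severing proteins limit and recycle filaments. In macrophages Rac and Cdc42 direct this machinery to the membrane cup that closes around a particle during phagocytosis.

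The mean signal of both beta thymosins, profilin 1 and Cdc42 was higher on hemophagocyte than on resting arrays, but it rested on some of the hemophagocyte arrays, and no member passed the test with all 8 arrays. The difference of the means was 2.19 log2 units for Tmsb10, 2.02 for Tmsb4x, 1.13 for Pfn1 and 0.96 for Cdc42. No fold is given, since the resting values of Tmsb10, Pfn1 and Cdc42 lay within the range of dim signal described below. Of the 44 members, 36 had means within 0.2 log2 units of each other in the groups. All values below are log2 values as deposited, and every change is the hemophagocyte mean minus the resting mean.

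With limma and Benjamini-Hochberg adjustment over all 20220 probe sets, 0 of 44 members were called at 0.05 in either direction, where 0.0198% of all genes were called higher and 0.0% lower. The adjusted p of the members ran from 0.745 to 0.998. At an unadjusted p under 0.05, 4 members were higher (Tmsb4x, Tmsb10, Vim and Cdc42), or 9.09% where all genes gave 1.56%, and 0 were lower where all genes gave 5.08%. The count of members higher was 8 without hemophagocyte 2 and 2 without hemophagocyte 5, where 314 and 430 of all 20220 probe sets were higher. The groups did not overlap, with hemophagocytes higher, for 2 members, Pfn1 and Vim, against 0.816% of all genes. The same held with hemophagocytes lower for 0 members, against 3.0% of all genes. Changes above 1 log2 unit were found in 3 members, Tmsb4x, Tmsb10 and Pfn1, against 0.396% of all genes. Above 0 lay 32 of 44 members, where 36.2% of all genes did. The members' median change was 0.09 and that of all genes -0.04. The share of all genes above 0 depended on scaling. It was 47.1% after quantile normalization, 46.6% after median centring and 50.9% after cyclic loess, with 35, 34 and 35 members above 0. The split of all genes at an unadjusted p under 0.05, 315 higher and 1027 lower as deposited, became 554 and 755, 523 and 692, and 620 and 563 in that order. With single arrays left out, 26 to 33 members lay above 0, the fewest without resting macrophage 5, where 32.8% to 41.6% of all genes did. With the mean signal of olfactory and vomeronasal receptors as a covariate, 24 members and 45.9% of all genes lay above 0.

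**Figure D1:**
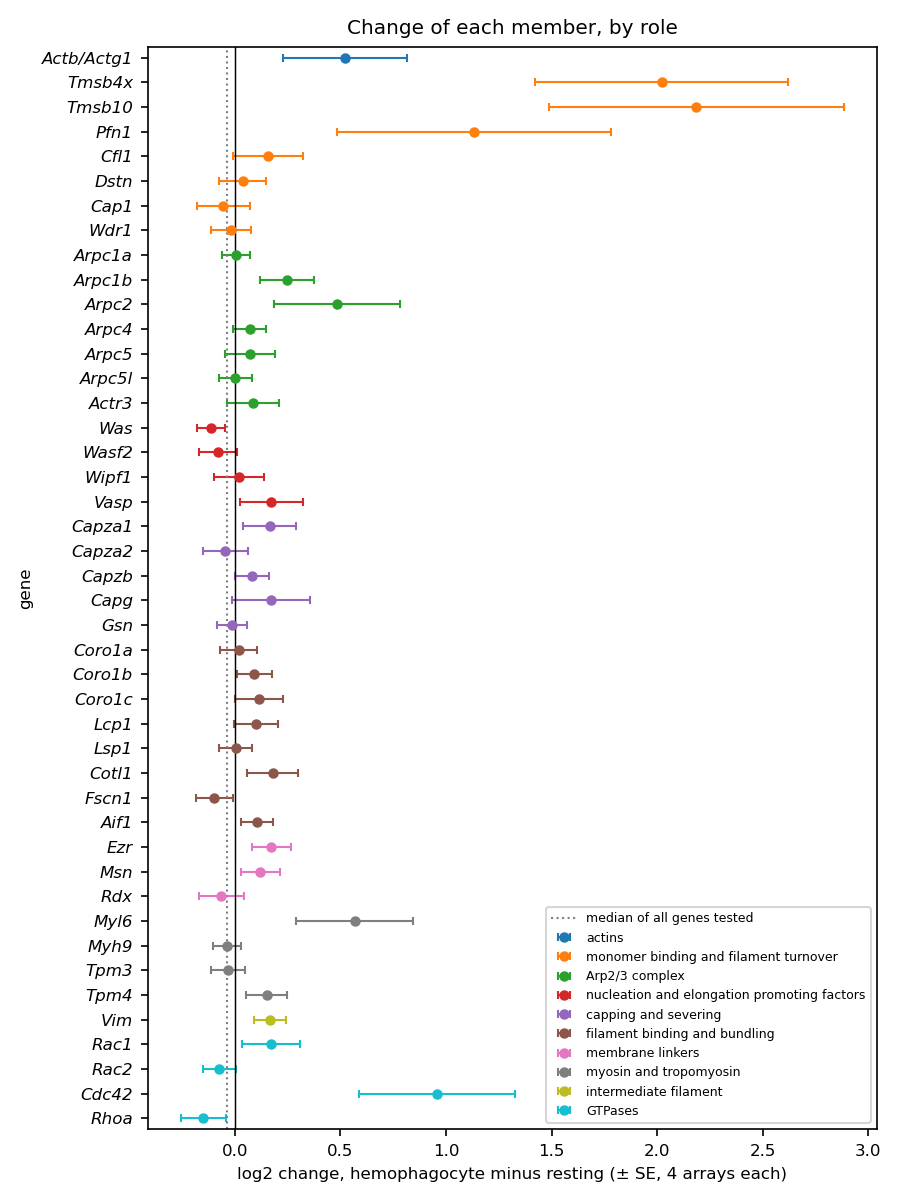
Change of each of the 44 member probe sets (hemophagocyte mean minus resting mean, log2 units, bars ± SE, 4 arrays in each group), coloured by role, with a dotted line at the median of all genes tested. Tmsb10 at 2.19, Tmsb4x at 2.02 and Pfn1 at 1.13 stand out to the right, and 36 members lie within 0.2 of 0.

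The 8 arrays did not contribute alike, and this bears on every result. Hemophagocytes 3 and 5 held most of the high values. On each of them 5 members lay over 1 log2 unit above their own median of 8 arrays, or 11.4% of members, where 0.885% and 0.9% of all genes did. Hemophagocyte 6 had 2 such members, and hemophagocyte 2 and the resting arrays had 0. Of the 44 members, 13 were highest on hemophagocyte 3 and 11 on hemophagocyte 5. Without hemophagocytes 3 and 5, the members' median change was 0.04 (all genes -0.01), and 30 members lay above 0, where 44.8% of all genes did. In that setting 0 members had an unadjusted p under 0.05, where 407 of all 20220 probe sets were higher and 547 lower. So few are expected among 44, and the 0 is not read as a result. Hemophagocyte 2 lay near the resting arrays for the members with the largest changes. Array medians over all probe sets ran from 6.10 to 6.17.

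**Figure D2:**
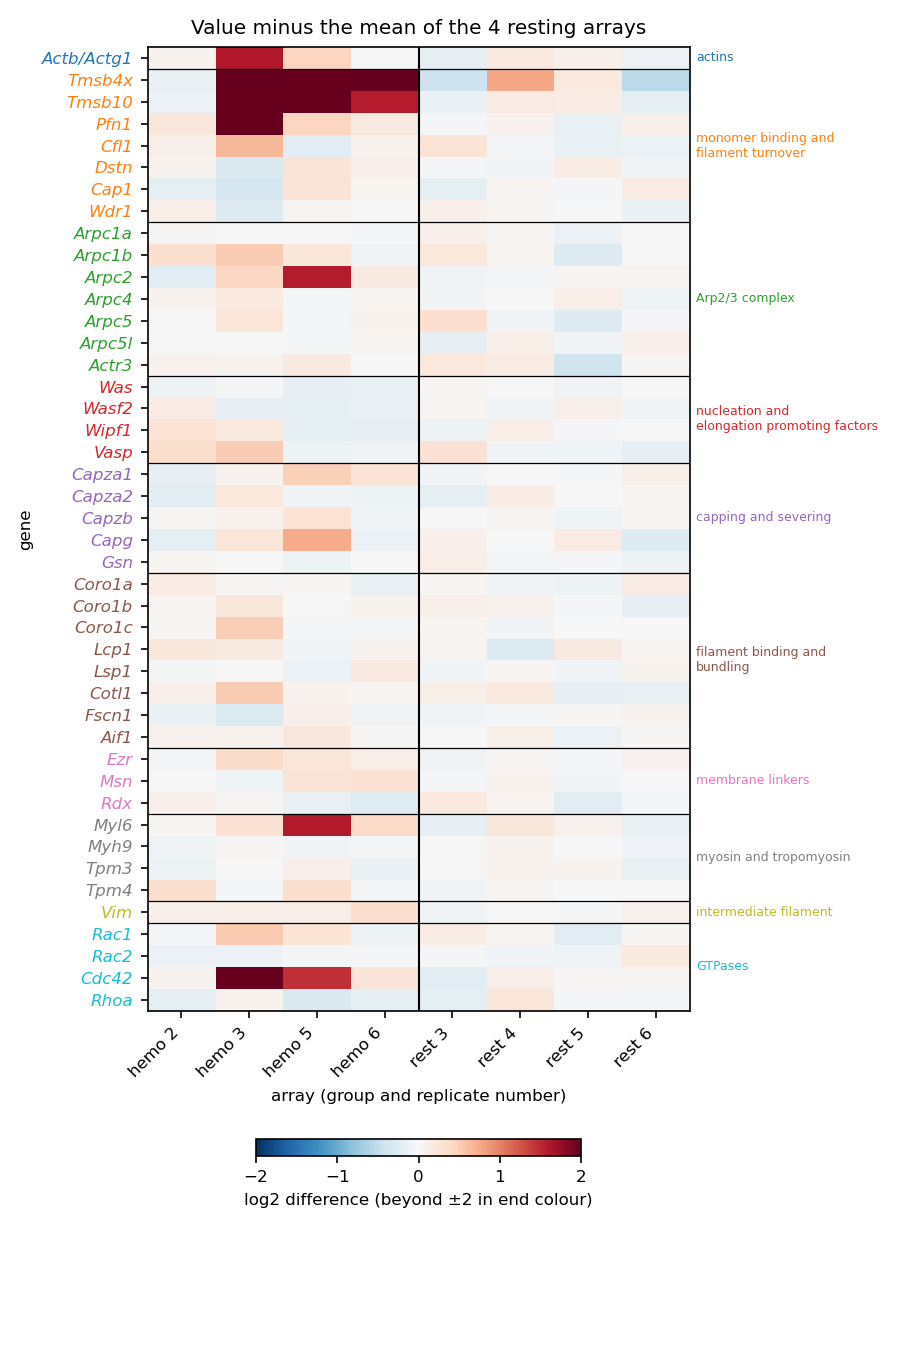
Value of each member on each array minus the mean of its 4 resting arrays (log2 units, colour, with values beyond the scale in the end colour), with genes as lines ordered by role and arrays as columns. The strong positive cells are those of Tmsb4x, Tmsb10, Pfn1, Cdc42, Arpc2, Myl6 and Actb/Actg1 on hemophagocytes 3, 5 and 6.

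Some macrophage markers and, of the platelet markers, Pf4 were high on hemophagocytes 3 and 5. Of 18 macrophage markers, all measured, 12 had a change above 0, and the mean of the list was 6.42 to 7.38 on hemophagocyte arrays and 6.55 to 6.68 on resting arrays. Cd68, a lysosomal glycoprotein of macrophages, was 9.66 and 10.52 on hemophagocytes 3 and 5 and 7.21 to 7.50 on the other 6 arrays. Lyz2, the lysozyme of myeloid cells, was 9.95 and 9.96 on those arrays, 5.86 and 6.55 on hemophagocytes 2 and 6, and 7.45 to 8.89 on resting arrays. As a measure of dim signal, the 95th percentile of 1170 probe sets for olfactory and vomeronasal receptors lay between 7.45 and 7.83. It was taken on each array, at 7.45 to 7.75 on hemophagocyte arrays and 7.72 to 7.83 on resting arrays. Only Lyz2 and C1qb exceeded it on any resting array, and the defining markers Adgre1 and Csf1r exceeded it on no array of either group. Among members, 9 exceeded it on some hemophagocyte array, and 1, Tmsb4x, on some resting array. As it was mostly lower on hemophagocyte arrays, Tpm3 counted at 7.65 on hemophagocyte 3 but not at 7.72 on resting macrophage 4. Probes differ in affinity, so a member under it is not shown to be unexpressed. In pooled cells, fewer cells of a type and less RNA per cell cannot be told apart.

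Of 11 platelet markers 8 were measured and 4 had a change above 0, and the list mean was 6.48 to 7.05 on hemophagocyte arrays and 6.67 to 6.82 on resting arrays. It was highest on hemophagocytes 3 and 5, at 7.05 and 6.99, where only Pf4 of the list lay over 1 log2 unit above the resting arrays. Pf4, platelet factor 4, was 10.35 and 9.11 on hemophagocytes 3 and 5, 6.10 and 5.49 on hemophagocytes 2 and 6, and 6.61 to 7.41 on resting arrays. Pf4 was the only measured platelet marker that was highest on hemophagocyte 3, and Ppbp, Gp5 and Clec1b were each lowest there. Ppbp, another platelet chemokine, did not exceed 5.29 on any array. The erythroid list, with 1 of 7 measured probe sets above 0, had a mean of 6.61 to 8.04 on hemophagocyte and 7.54 to 8.13 on resting arrays, lowest on hemophagocyte 2. Of 12 neutrophil markers 4 had a change above 0, with a list median of -0.06 and list means of 6.23 to 6.57 and 6.20 to 6.27. S100a8, a calcium-binding protein abundant in neutrophils, reached 8.02 on hemophagocyte 3 against 4.86 to 5.02 on resting arrays. Of 9 dendritic cell markers 0 had a change above 0, and the list mean was 6.65 to 6.81 on hemophagocyte and 6.82 to 6.89 on resting arrays. Of 9 NK cell markers 2 did, and the list mean was 5.79 to 6.03 and 6.04 to 6.13. For both list means the hemophagocyte arrays lay below the resting arrays. Gene by gene, the groups did not overlap for 1 dendritic cell marker and 0 NK cell markers, against 3.0% of all genes. The mean over the receptors was also mostly lower on hemophagocyte arrays, at 5.85 to 6.18, than on resting arrays, at 6.10 to 6.27. Above 0 were 4 of 10 T cell markers (6.36 to 6.48 and 6.44 to 6.46), 3 of 9 B cell markers (6.33 to 6.55 and 6.45 to 6.61) and 5 of 14 markers of stroma, smooth muscle and endothelium (6.18 to 6.30 and 6.26 to 6.33). The part of these cells in the results below was not tested.

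The monomer binding proteins held the largest changes, with 7 members, 5 of them above 0. Tmsb4x encodes thymosin beta 4, the main buffer of free actin monomers in many blood cells. Its values were 7.77, 10.64, 10.52 and 10.85 on hemophagocytes 2, 3, 5 and 6 and 7.50, 8.69, 8.12 and 7.38 on resting macrophages 3, 4, 5 and 6, and values below keep this array order. Hemophagocytes 3, 5 and 6 were above all resting arrays, while hemophagocyte 2 lay among them. The means were 9.95 ± 1.46 (SD, n = 4) and 7.92 ± 0.61, a change of 2.02 (SE 0.60, limma adjusted p = 0.745). Without hemophagocyte 2, Tmsb4x rose by 2.75 and passed limma's test at adjusted p = 0.0104. That array is the one that differed from the other hemophagocytes for this gene, so the pass adds no support. Limma then called 15 of all 20220 probe sets, against 4 with all arrays. Over all 20 alternatives the adjusted p of Tmsb4x ran from 0.0104 to 0.970, and its change without hemophagocytes 3 and 5 was 1.39. On hemophagocyte 6, where Tmsb4x was highest, list means were 6.49 for macrophage, 6.48 for platelet and 6.32 for neutrophil markers. The erythroid list mean was the highest of the hemophagocytes, at 8.04. Single markers differed there. Pf4 was at its lowest and Cd68 stood at 7.50, while Itga2b, another platelet marker, was at its highest, 6.72. The neutrophil marker S100a9 was 7.33, against 6.12 to 6.34 on resting arrays. The part of such cells in the Tmsb4x values was not tested.

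Tmsb10, for thymosin beta 10, a close relative that also binds monomers, gave 5.97, 9.43, 10.04 and 7.65 on the hemophagocyte arrays and 5.96, 6.24, 6.23 and 5.91 on the resting arrays. Hemophagocyte 2 was again among the resting arrays, and the other hemophagocytes lay at least 1 log2 unit above them. The group means were 8.27 ± 1.84 and 6.09 ± 0.18, and the change was 2.19 (SE 0.70, limma adjusted p = 0.745). A further probe set for Tmsb10 gave 2.29. The change was 2.95 without hemophagocyte 2, at limma adjusted p = 0.0775, and 0.73 without hemophagocytes 3 and 5; over the alternatives the adjusted p ran from 0.0775 to 0.970. On hemophagocyte 6, Tmsb4x was as high as on hemophagocytes 3 and 5, whereas Tmsb10 was lower there.

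Pfn1 encodes profilin 1, which loads monomers with ATP and hands them to growing filament ends. Its hemophagocyte values were 5.55, 9.02, 5.77 and 5.52 and its resting values 5.29, 5.42, 5.18 and 5.44. The groups did not overlap, but most of the difference came from hemophagocyte 3, and the other hemophagocytes exceeded the highest resting array by less than 0.4. The means of 6.47 ± 1.71 and 5.33 ± 0.12 differed by 1.13 (SE 0.65, limma adjusted p = 0.745). Without hemophagocytes 3 and 5 the difference was 0.20. The filament turnover genes Cfl1, Dstn, Cap1 and Wdr1, for cofilin 1, destrin, a cyclase-associated protein and a cofilin cofactor, had changes of 0.16, 0.04, -0.05 and -0.02.

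**Figure D3:**
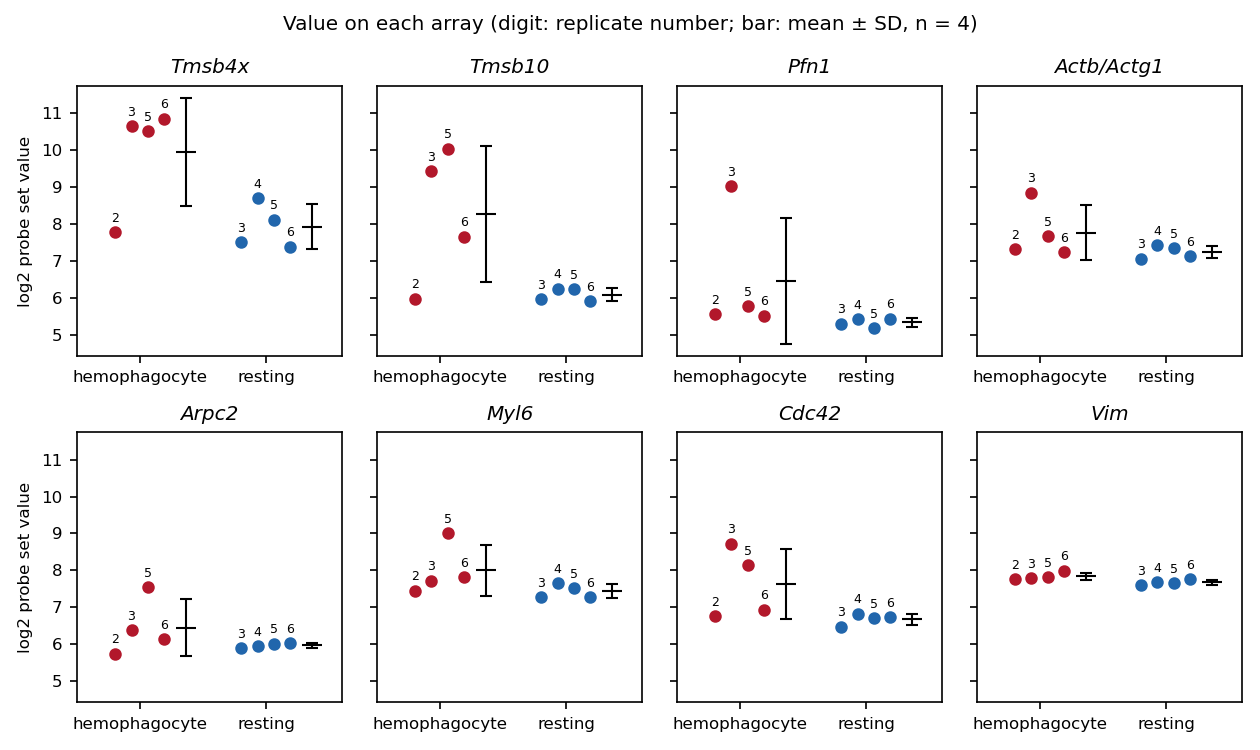
Log2 value on each array of 8 members (Tmsb4x, Tmsb10, Pfn1, Actb/Actg1, Arpc2, Myl6, Cdc42 and Vim), with the replicate number at each point and a bar for the mean ± SD of 4 arrays. Tmsb4x lies between 10.52 and 10.85 on hemophagocytes 3, 5 and 6 and at 7.77 on hemophagocyte 2, and Pfn1 is high on hemophagocyte 3, at 9.02.

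The promoter windows of the members with the highest changes and of Actg1 are shown because the probe sets of all 5 genes were high on hemophagocyte 3. That of Actg1 also names Actb, so Actg1 alone is not shown to be high. They are the 250 bases before the RefSeq start in GRCm38.p6, 5′ to 3′ on the gene's own strand, which is minus for all 5. Capitals mark 2 motifs: GGGCGG, the GC box core, on either strand, and the CArG box, the serum response factor motif of many cytoskeleton genes. Matches were marked without overlap, so a further GGGCGG in the Actg1 window that overlaps a marked one is not marked. The windows are chrX:167209219-167209468 for Tmsb4x, chr6:72958749-72958998 for Tmsb10 (the most upstream of 3 starts), chr11:70654651-70654900 for Pfn1, chr4:137357760-137358009 for Cdc42 and chr11:120348496-120348745 for Actg1.
Tmsb4x: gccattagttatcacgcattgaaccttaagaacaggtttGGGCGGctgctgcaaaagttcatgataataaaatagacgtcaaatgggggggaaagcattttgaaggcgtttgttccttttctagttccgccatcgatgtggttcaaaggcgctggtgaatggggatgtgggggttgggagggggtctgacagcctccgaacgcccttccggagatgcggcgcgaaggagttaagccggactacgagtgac
Tmsb10: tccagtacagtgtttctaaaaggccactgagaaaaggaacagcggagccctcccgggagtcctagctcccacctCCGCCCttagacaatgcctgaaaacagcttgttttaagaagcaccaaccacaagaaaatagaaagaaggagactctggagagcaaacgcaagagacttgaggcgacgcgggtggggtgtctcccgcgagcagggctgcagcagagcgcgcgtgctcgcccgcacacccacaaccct
Pfn1: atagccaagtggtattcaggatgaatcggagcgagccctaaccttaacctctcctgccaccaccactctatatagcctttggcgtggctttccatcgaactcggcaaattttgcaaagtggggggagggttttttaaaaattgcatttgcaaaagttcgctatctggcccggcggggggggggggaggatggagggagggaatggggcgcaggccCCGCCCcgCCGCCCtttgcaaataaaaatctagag
Cdc42: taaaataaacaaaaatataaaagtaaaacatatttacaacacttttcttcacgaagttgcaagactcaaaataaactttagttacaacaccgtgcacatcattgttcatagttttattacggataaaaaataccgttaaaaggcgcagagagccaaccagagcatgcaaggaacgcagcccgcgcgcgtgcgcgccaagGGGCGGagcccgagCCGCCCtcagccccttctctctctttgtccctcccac
Actg1: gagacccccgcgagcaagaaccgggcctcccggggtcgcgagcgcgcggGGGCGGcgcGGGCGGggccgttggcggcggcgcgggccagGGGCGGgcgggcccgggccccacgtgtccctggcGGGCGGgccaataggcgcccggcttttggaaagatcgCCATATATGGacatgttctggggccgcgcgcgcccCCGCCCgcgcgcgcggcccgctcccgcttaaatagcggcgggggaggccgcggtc
Counted without overlap, GGGCGG was found 1 time each in the Tmsb4x and Tmsb10 windows, 2 times each in those of Pfn1 and Cdc42, and 5 times in that of Actg1. Of 32851 windows of this length, 32.7% held it, and of 50 windows for 38 members, 58.0%. The CArG box was in 1.47% of all windows and in 3 of the 50, for Actg1, Arpc4 and Myl6. It was not in the windows of Tmsb4x, Tmsb10, Pfn1 or Cdc42. A match describes letters and shows no binding.

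Actb and Actg1 encode the cytoplasmic beta and gamma actins. Their common probe set gave 7.31, 8.84, 7.66 and 7.23 on the hemophagocyte arrays and 7.06, 7.43, 7.34 and 7.12 on the resting arrays. Hemophagocyte 3 was highest by over 1 log2 unit, hemophagocyte 5 was above every resting array, and the other hemophagocytes lay among them. The change was 0.52 (SE 0.29, limma adjusted p = 0.745), and 0.03 without hemophagocytes 3 and 5. All 5 probe sets that name Actb had changes of 0.42 to 0.85 and were highest on hemophagocyte 3. Actin genes and their copies are nearly identical in sequence, so the probe sets cannot be assigned to single genes with certainty.

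The Arp2/3 complex nucleates branched filaments, and all 7 measured subunits had changes above 0, though small, with a median of 0.07. Arpc2, a subunit of its core, was 5.74, 6.38, 7.54 and 6.14 on hemophagocytes and 5.89, 5.94, 6.01 and 6.02 on resting macrophages. Hemophagocyte 5 was far the highest and hemophagocyte 2 the lowest of all 8. The change was 0.48 (SE 0.30, limma adjusted p = 0.749) and -0.02 without hemophagocytes 3 and 5. Arpc1b, the hematopoietic form of another subunit, was 7.39, 7.57, 7.30 and 7.0 and 7.27, 7.12, 6.80 and 7.07. The groups overlapped, with a change of 0.25 (SE 0.13, limma adjusted p = 0.745). Arpc4 differed by 0.07 (SE 0.08), and the remaining subunits Arpc1a, Arpc5, Arpc5l and Actr3 by 0.00 to 0.09.

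Of 4 factors that activate nucleation or speed elongation, 2 had changes above 0, with a median of -0.03. Was encodes WASP, the hematopoietic activator of Arp2/3. It was 6.78, 6.85, 6.73 and 6.74 on hemophagocytes and 6.93, 6.90, 6.82 and 6.90 on resting arrays, a change of -0.11 (SE 0.06, limma adjusted p = 0.745). The groups overlapped only at their edges, between 6.82 and 6.85. Wasf2, for a WAVE protein that acts downstream of Rac, differed by -0.08 (SE 0.09), with hemophagocyte 2 highest at 6.36. Vasp, an elongation factor at filament ends, was 7.25, 7.40, 6.79 and 6.83 and 7.19, 6.85, 6.81 and 6.73, a change of 0.17 (SE 0.15). Wipf1, a partner of WASP, differed by 0.02.

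Capping and severing proteins had 3 of 5 changes above 0 and a median of 0.08, or -0.02 without hemophagocytes 3 and 5. Capg, a capping protein abundant in macrophages, was 6.81, 7.23, 7.74 and 6.88 and 7.10, 6.98, 7.16 and 6.74. Its high value was on hemophagocyte 5, and the change of 0.17 (SE 0.18, limma adjusted p = 0.839) was -0.02 without that array. Capza1, an alpha subunit of capping protein, was 5.36, 5.60, 6.01 and 5.81 and 5.48, 5.52, 5.49 and 5.64, a change of 0.16 (SE 0.12). Its partner Capzb differed by 0.08 (SE 0.08), Capza2 by -0.04 and the severing protein gelsolin (Gsn) by -0.01.

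Filament binding and bundling proteins had 7 of 8 changes above 0, none beyond 0.18. Cotl1, for coactosin-like 1, was 6.78, 7.18, 6.73 and 6.71 on hemophagocytes and 6.79, 6.86, 6.51 and 6.53 on resting arrays. Hemophagocyte 3 was the highest, and the change was 0.18 (SE 0.12, limma adjusted p = 0.763). Aif1, the bundling protein also called Iba1 and used as a macrophage marker, differed by 0.10 (SE 0.08), and coronin 1B (Coro1b) by 0.09 (SE 0.08). Coro1a, Coro1c, Lcp1, Lsp1 and Fscn1 lay between -0.10 and 0.12.

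The membrane linkers ezrin, radixin and moesin tie filaments to the plasma membrane. Ezr was 6.01, 6.42, 6.30 and 6.18 and 5.98, 6.07, 6.03 and 6.14, with hemophagocytes 3, 5 and 6 above every resting array and hemophagocyte 2 among them. The change was 0.17 (SE 0.09, limma adjusted p = 0.745). Msn, the main form in leukocytes, differed by 0.12 (SE 0.09) and Rdx by -0.06 (SE 0.11).

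Myl6, the essential light chain of nonmuscle myosin, was 7.45, 7.72, 9.01 and 7.81 on hemophagocytes and 7.27, 7.65, 7.52 and 7.28 on resting arrays. Hemophagocyte 5 stood more than 1 log2 unit above all others, and the change was 0.57 (SE 0.28, limma adjusted p = 0.745), or 0.20 without hemophagocytes 3 and 5. All 6 probe sets for Myl6 were highest on hemophagocyte 5, with changes of 0.11 to 0.64. The change of the heavy chain gene Myh9 was -0.04 (SE 0.07). Tpm4, a tropomyosin that coats filaments, was 7.29, 6.94, 7.28 and 6.95 and 6.90, 7.02, 6.97 and 6.96, a change of 0.15 (SE 0.10). A dimmer probe set that names both Gm7809 and Tpm4 gave 1.04, with 6.59 and 8.18 on hemophagocytes 3 and 5, so the probe sets for Tpm4 differ in size of change.

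**Figure D4:**
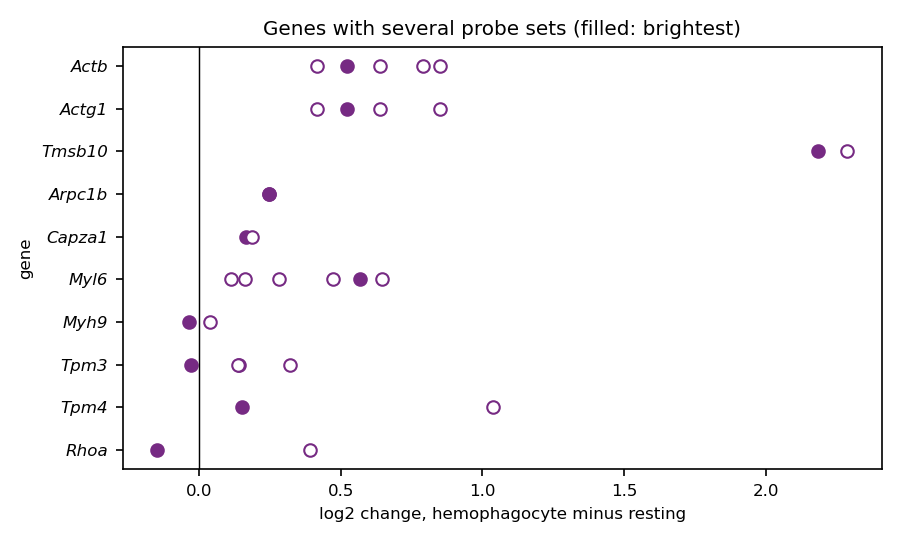
Change (hemophagocyte mean minus resting mean, log2 units) of every probe set of the 10 members that have several, with the brightest, used for the gene, filled. Changes had 1 sign in 7 genes and both signs in Myh9, Rhoa and Tpm3.

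Vim encodes vimentin, an intermediate filament protein of macrophages and of mesenchymal cells. Its values were 7.77, 7.79, 7.81 and 7.99 and 7.60, 7.69, 7.65 and 7.76, so that every hemophagocyte exceeded every resting array, by a small margin. The change was 0.17 (SE 0.07, limma adjusted p = 0.745). It was as large without hemophagocytes 3 and 5, at 0.21.

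Cdc42, a GTPase that acts as a switch for filopodia and the phagocytic cup, was 6.75, 8.72, 8.15 and 6.93 on hemophagocytes and 6.47, 6.82, 6.70 and 6.74 on resting arrays. Hemophagocytes 3 and 5 were more than 1 log2 unit above every resting array, while hemophagocyte 2 lay within the resting range. The means of 7.64 ± 0.95 and 6.68 ± 0.15 differed by 0.96 (SE 0.37, limma adjusted p = 0.745), and by 0.16 without hemophagocytes 3 and 5. Rac1, which drives membrane ruffles, was 6.71, 7.26, 7.02 and 6.64 and 6.88, 6.77, 6.53 and 6.76, a change of 0.17 (SE 0.14) that was -0.06 without those arrays. Rhoa, which controls contraction, differed by -0.15 (SE 0.11), but its dimmer probe set gave 0.39. Rac2, the hematopoietic Rac, differed by -0.07.

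**Figure D5:**
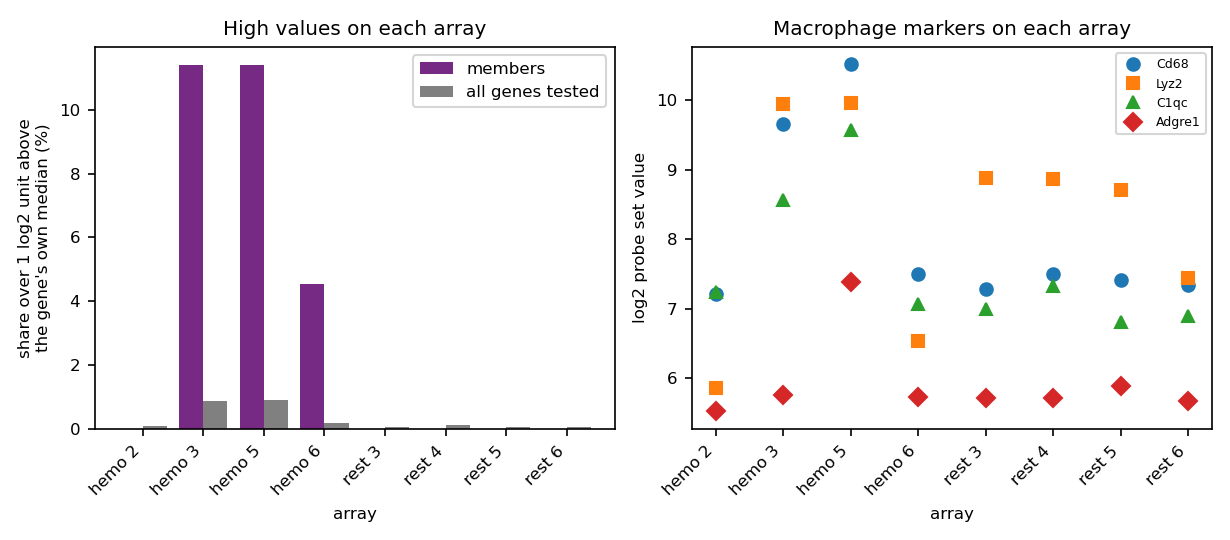
Left, share of members and of all genes tested that lay over 1 log2 unit above their own median on each array (percent); right, log2 values of the macrophage markers Cd68, Lyz2, C1qc and Adgre1 on each array. The members' share is 11.4% on hemophagocytes 3 and 5, where Cd68 reads 9.66 and 10.52, 4.55% on hemophagocyte 6 and 0.0% on the other 5 arrays.

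Other actin regulators, 75 further genes of formins, WAVE complex subunits, adhesion adaptors and kinases, cover the rest of the pathway. Of the 69 measured, 38 or 55.1% had a change above 0, where 36.2% of all genes did. The median was 0.01, where that of all genes was -0.04, and the range was -0.25 to 0.25. None was called by limma, and at an unadjusted p under 0.05, 0 were higher, where 1.56% of all genes were, and 1 was lower, where 5.08% were. That gene was Fmnl2, a formin, at -0.25 (SE 0.09, limma adjusted p = 0.745). Tmod3, a tropomodulin that caps slow filament ends, was next at 0.25 (SE 0.11), and Diaph1, also a formin, at 0.17 (SE 0.08).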

How the data were processed

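RNA of laser-captured spleen cells was amplified, labelled with biotin and hybridised to Affymetrix mouse Gene ST 1.0 arrays, per the labels' protocols. Their range puts the deposited values on the log2 scale, with 1 value for a probe set on each array. The submitters' processing notes name Affymetrix Expression Console 1.1. For background correction, probe summary, normalization and the genome build of the array, details were not given in the sources used here. No scaling was added. Of 35556 probe sets, the platform annotation gave 1 symbol for 21789, several for 1621, and did not list 12146. Keeping probe sets that name several genes, the brightest per gene left 20220 for the test. Groups and replicate numbers come from the sample titles.

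Groups were compared with limma 3.58.1 (lmFit, eBayes) in R 4.3.3 with Benjamini-Hochberg adjustment and a threshold of 0.05. Exact permutation of 4 against 4 arrays cannot give a p below 0.0286. Scripts were tested on simulated data. The members and lists were chosen with earlier results of these data known. From each role the text describes members past the threshold, else up to 3 of smallest p; from other lists, the 3 of smallest p. Where other members are singled out, this was after their values were seen. Alternatives were normalization, filtering, variance model, probe set choice, arrays left out, a replicate block and a background covariate. Samples with the same number had correlations of deviations of 0.14, 0.06 and 0.12 for numbers 3, 5 and 6, so the numbers were not taken to pair samples. Promoter sequences are RefSeq's (GRCm38.p6).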

Additional observations from a re-analysis of the deposited data

Results flagged for a closer look

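In 88 sets of 4 arrays (44 members in each group), 6 held a highest or lowest array far from the other 3 by Dixon's test, or 6.82%, where chance gives about 1 in 20. Tmsb4x on hemophagocyte 2 was 7.771, with the other hemophagocytes at 10.518 to 10.854. Pfn1 on hemophagocyte 3 was 9.022, with the others at 5.518 to 5.767. Also on hemophagocyte 3, Coro1c was 5.966 (others 5.439 to 5.489) and Cotl1 was 7.179 (others 6.709 to 6.776). Wasf2 on hemophagocyte 2 was 6.363 (others 6.029 to 6.068). Dstn on resting macrophage 5 was 4.997 (others 4.789 to 4.816). Of the 6 values, 3 were on hemophagocyte 3 and 2 on hemophagocyte 2.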

How the results depend on the processing

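Of 26 members described, 15 kept the sign of their change under every alternative that gave them a value. These were 20 alternatives for 11 of them, and 19 for Aif1, Capza1, Ezr and Rdx, which lie below the median level and so had no value when such genes were left out. The number of members past the threshold was 0 with all arrays, 0 to 1 with single arrays left out and 1 with a replicate block, where Tmsb4x rose by 3.004 (limma adjusted p = 0.0141). Over all 20220 probe sets, 4, 1 to 15 and 9 passed it in that order, all of them higher. The number of members higher at an unadjusted p under 0.05 was 4. It was 2 with an intensity trend and robust prior, 2 to 8 with single arrays left out, 11 with the replicate block and 0 without hemophagocytes 3 and 5. Over all 20220 probe sets, 315, 276, 211 to 430, 387 and 407 were higher in that order. With receptor background as a covariate, Dstn, Msn, Myl6, Tmsb10, Tmsb4x and Vim were higher at that p, and 2 members were lower. Of all 20220 probe sets, 454 were then higher and 487 lower. With all arrays and no covariate, 0 members were lower. The numbers only name the samples. The block takes its change from numbers 3, 5 and 6, so hemophagocyte 2 and resting macrophage 4 add nothing to it. Signs turned as follows. Without hemophagocytes 3 and 5, Arpc2 was -0.0248, Wasf2 0.0131, Capzb -0.0162, Capg -0.151 and Rac1 -0.0599. With single arrays left out, Capg was -0.0211 to 0.2883. With the covariate, Pfn1 was -0.13, Vasp -0.13, Cotl1 -0.0296, Coro1b -0.0064 and Rac1 -0.0292. With the mean of all probe sets, Myh9 was 0.0008 and Rhoa 0.12, and Myh9 was 0.0014 with the block. The causes were not tested. The members' median change was 0.03 to 0.14 over the alternatives, and exceeded that of all genes by 0.04 to 0.17. With 4 arrays per group, and 35 of 44 members nowhere above the receptors' 95th percentile, small changes of dim members could not be resolved.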

Other observations

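Tubulins and microtubule factors, the other filament system of the cell, were 20 genes on 19 distinct probe sets, of which 14 or 73.7% had a change above 0, where 36.2% of all genes did, with a median of 0.09. None was called by limma, and 3 of 19 were higher at an unadjusted p under 0.05, where 1.56% of all genes were. Dynll1, a dynein light chain, differed by 0.32 (SE 0.14), Tubb3, a beta tubulin, by 0.26 (SE 0.11) and Clip1, which tracks growing microtubule ends, by 0.18 (SE 0.08). Tubb2a, another beta tubulin, was singled out after its values were seen: it was 7.38 and 7.73 on hemophagocytes 3 and 5 and 5.27 to 5.74 on the other 6 arrays. These are the same arrays on which Cdc42 was high.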
